A study of Homo sapiens with 8 samples.

Results

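HOX genes encode the homeodomain transcription factors that give cells their position along the body axis, and 38 of the 39 HOX genes listed among the 23391 genes of the count table were followed here in DU145 cells with and without Esrrb and its ligand DY131. The members were taken by symbol and come from the 4 HOX clusters, with 10 HOXA, 10 HOXB, 9 HOXC and 9 HOXD genes. The DU145 line derives from human prostate cancer. Esrrb is an orphan nuclear receptor, estrogen related receptor β, and DY131 is a synthetic ligand of Esrrb and of estrogen related receptor γ. DU145-pc3.1 cells were transfected with the empty vector and DU145-Esrrb cells with the Esrrb expression vector, and both are stable pools selected with Zeocin, not single clones. In comparisons named for Esrrb, its effect cannot be told apart from other differences between the transfected pools. Each was sequenced untreated and after 3 μM DY131, in 2 biological replicates a group and 8 libraries in all. The questions were which HOX genes these cells express by cluster and position, and whether the rise of HOXB8, which had been seen in these data before, extends to its neighbours.

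Vertebrate HOX genes lie in 4 clusters, and the number in a symbol gives the paralog group, which follows the order of the genes along the chromosome. Low numbers are as a rule active in anterior structures and high numbers in posterior ones, and Polycomb and Trithorax proteins keep these states. HOX proteins bind DNA together with PBX and MEIS cofactors. In the prostate, HOXB13 marks the luminal epithelium.

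HOX genes resemble each other in the homeobox, the part that encodes the DNA-binding homeodomain, so it was checked whether reads of 50 bases could be shared between them. The longest run of bases that the HOXB8 transcript shares with the transcript of another member was between 11 and 38 bases, shorter than a read of 50 bases. None of the 50-base windows of HOXB8 or HOXB9 occurred in another gene on either strand. For HOXB6 5.71% of the windows occurred in other genes (HOXB3 and HOXB7) and 12.97% were antisense to HOXB-AS3, so its counts carry some uncertainty. For HOXB5 and HOXB7 the shares in other genes were 0.0502% and 0.151%.

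HOXB8 mRNA is also the textbook target that miR-196 cleaves, and the microRNA and its site are shown because the microRNA genes lie inside the HOX clusters. The mature sequences come from RefSeq (GRCh38.p14), with the seed (bases 2 to 8) in capitals, and the site comes from the 3′ end of the HOXB8 transcript beyond the stop codon, with the bases facing the seed in capitals.

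hsa-miR-196a-5p: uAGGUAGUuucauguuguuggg
hsa-miR-196b-5p: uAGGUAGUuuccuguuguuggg
HOXB8 site: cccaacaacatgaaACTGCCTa

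Both microRNAs share the seed. At the site, at chr17:48612770-48612791 on the minus strand, 21 of the 22 bases of miR-196a pair with HOXB8 and 1 is a G:U pair. The libraries were made from polyadenylated RNA and do not measure mature microRNAs. The table lists the precursor genes MIR196A1 (HOXB cluster) and MIR196A2 (HOXC cluster) at 0 reads in all 8 libraries, and MIR196B (HOXA cluster) at 2 reads in DU145-Esrrb replicate 2 and 0 elsewhere.

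The libraries held between 7858743 and 11551690 reads counted on genes, and ESRRB had 0 to 3 reads in the DU145-pc3.1 libraries with and without DY131 and 99 to 143 in the DU145-Esrrb libraries. Epithelial markers (EPCAM, CDH1, KRT8, KRT18 and KRT19) summed to between 2503 and 3166 cpm (counts scaled by effective library size). The prostate luminal markers KLK2, KLK3 and FOLH1 had 0 reads in every library, and TMPRSS2 and ACPP at most 2 reads, and these 5 do not stand for the whole list of 7. Epithelial markers moved with the groups in both directions. CDH1 was at 165 and 157 cpm in DU145-pc3.1 cells, 114 and 107 in DU145-Esrrb, 78.9 and 113 in DY131-treated DU145-pc3.1, and 62.3 and 73.2 in DY131-treated DU145-Esrrb cells. In that last group EPCAM (76.9 and 80.1 cpm) lay below the other libraries (90.7 to 122.9), and KRT8 (1627 and 1616, against 1064 to 1460.0) and KRT19 (510.3 and 512.6, against 374.3 to 479) lay above them. By the test given below, 2 of the 5 markers passed upward and 2 downward for DY131 in DU145-Esrrb cells, beside 29.2% and 29.5% of all tested genes. As many passed for Esrrb in DY131-treated cells, beside 25.1% and 25.3% of all tested genes. The part of this in the HOX values was not tested. The basal markers KRT5, KRT14 and TP63 summed to at most 0.264 cpm, 3 endothelial markers to at most 1.12 cpm and 5 fibroblast markers to at most 6.07 cpm. Of 5 leukocyte markers CD3E and MS4A1 were at 0 and CD68 made up most of the 59.7 to 94.0 cpm, with 90.7 and 93.5 cpm in the DY131-treated DU145-Esrrb libraries and 59.3 to 77.6 in the others. In bulk RNA, fewer cells that express a gene and less of its RNA per cell cannot be told apart.

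HOXB was the most highly expressed cluster. Summed over its members and averaged over all libraries it held 58.3% of the HOX level per kilobase of transcript, against 19.5% each for HOXA and HOXC and 2.61% for HOXD. Of the 38 members, 27 had at least 1 cpm in at least 2 libraries and were tested among 13856 genes. The other 11 were HOXA4, HOXB1, HOXB13, HOXC12, HOXD3, HOXD4, HOXD8, HOXD10, HOXD11, HOXD12 and HOXD13. HOXB1, HOXB13, HOXC12, HOXD10, HOXD12 and HOXD13 had 0 reads in every library, which allows up to 0.255 to 0.391 cpm (3 counts, counting error only). So the posterior end of HOXB, where the prostate gene HOXB13 lies, was not detected at this depth. HOXD3, HOXD4 and HOXD11 had at most 3 reads in a library, HOXA4 was at 0.397 to 1.36 cpm and HOXD8 at 0.226 to 1.40 cpm. Of the 50-base windows of HOXD3, HOXD4 and HOXD11, 95.7%, 76.5% and 27.5% occur in other genes. How the counter treated reads with several matches is not stated, so the counts of these genes may miss some of their reads.

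**Figure D1:**
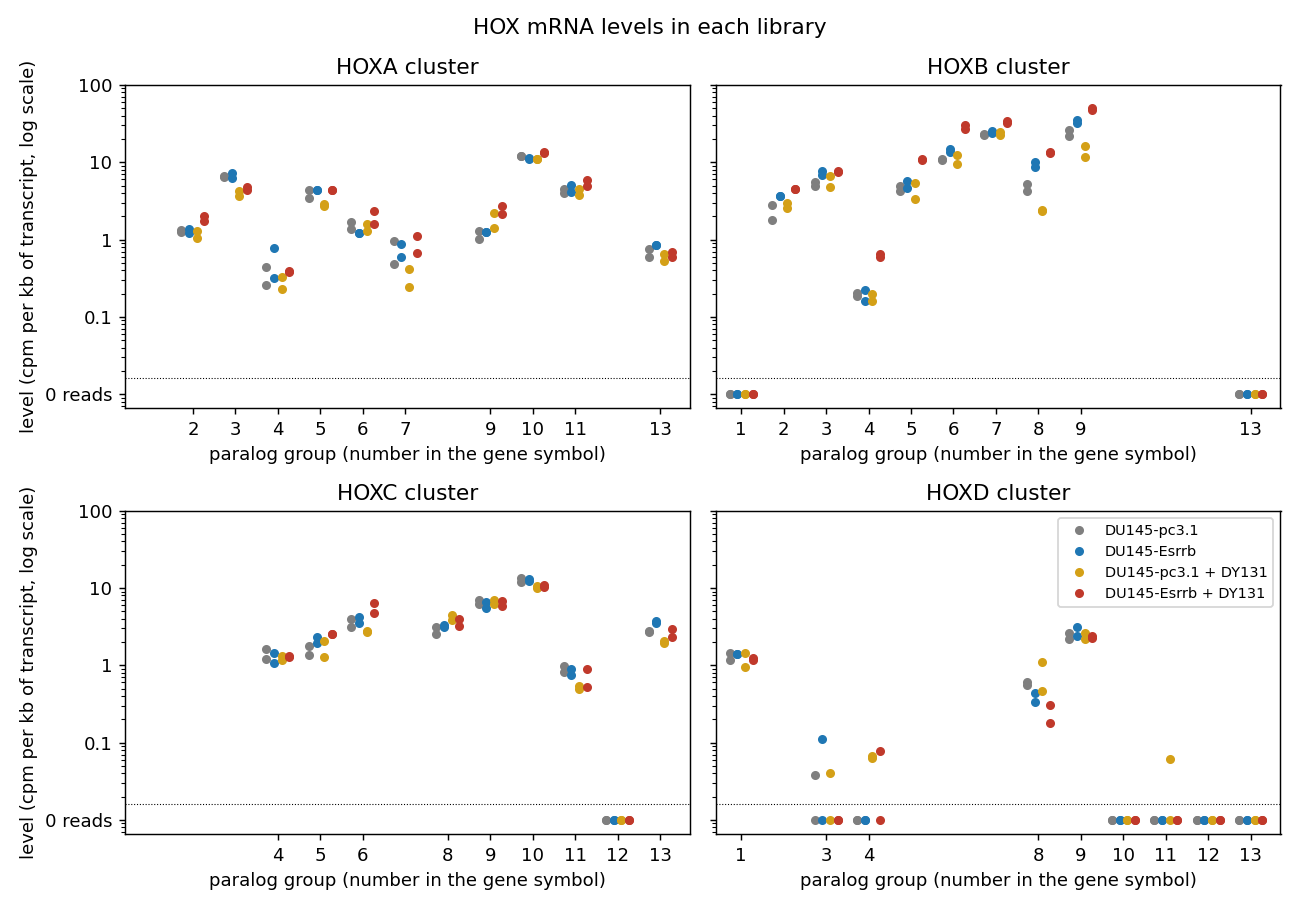
Level of every HOX member in each library, in cpm per kilobase of transcript on a log axis, against its paralog group, with 1 panel per cluster, 1 point per library coloured by group, and genes without reads placed below the dotted line. HOXB reaches the highest levels, at paralog groups 6, 7 and 9, while HOXB1 and HOXB13 have 0 reads and most HOXD genes have few or 0 reads.

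By the mean over all libraries, the highest member of each cluster belonged to paralog group 9 or 10. HOXB9 had 30.1 cpm per kilobase on average and 11.8 to 50.4 over the libraries. HOXA10 (chr7:27170591-27180261, minus strand) had 11.9 cpm per kilobase, with 10.9 to 13.65 over the libraries. HOXC10 (chr12:53985065-53990279, plus strand) had 11.6, with 10.1 to 13.5. HOXD9 (chr2:176122720-176124937, plus strand) had 2.47, with 2.17 to 3.098. The ranges of HOXA10 and HOXC10 overlap, so their order is not resolved, while HOXD9 lay below both in every library. Within HOXB the mean level per kilobase over all libraries was 30.1 for HOXB9, 26.0 for HOXB7, 16.1 for HOXB6, 7.49 for HOXB8, 6.48 for HOXB3, 6.25 for HOXB5, 3.32 for HOXB2 and 0.298 for HOXB4. This order was not that of every group. HOXB9 had 24.1 and HOXB7 22.9 cpm per kilobase in DU145-pc3.1, but 13.9 and 23.7 in DY131-treated DU145-pc3.1 cells, where HOXB7 was the highest HOXB gene. HOXB8 lay below HOXB3 in DU145-pc3.1 (4.77 and 5.28), and in DY131-treated DU145-pc3.1 cells (2.37) below HOXB3 (5.75), HOXB5 (4.38) and HOXB2 (2.74). HOXB4 was below the genes on both of its sides in all 4 groups.

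The summed HOXB level per kilobase was 74.8 in DU145-pc3.1, 97.9 in DU145-Esrrb, 63.9 in DY131-treated DU145-pc3.1 and 147.7 in DY131-treated DU145-Esrrb cells. For HOXA the sums were 32.5, 32.7, 27.5 and 36.0 in the same order of groups, for HOXC 32.3, 33.7, 29.4 and 33.4, and for HOXD 4.30, 4.60, 4.50 and 3.81. These sums are descriptions and were not tested.

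Each comparison was tested by quasi-likelihood in edgeR, and p-values were adjusted (Benjamini-Hochberg) across the 13856 genes. A gene passed at an adjusted p under 0.05, and it was called where its log2 fold change (Log2FC) was also at least 1 or at most -1. Counts of members are given over 26 genes, 9 of HOXA, 7 of HOXB, 8 of HOXC and 2 of HOXD, because HOXB4 reached 1 cpm only in the DY131-treated DU145-Esrrb libraries. The comparisons share libraries and are not independent of each other.

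HOXB8 is a paralog group 8 gene (chr17:48611377-48614939). It was at 9.64 and 7.75 cpm in the DU145-pc3.1 libraries, 15.8 and 18.5 cpm in DU145-Esrrb, 4.39 and 4.26 cpm in DY131-treated DU145-pc3.1, and 24.8 and 24.2 cpm in DY131-treated DU145-Esrrb. No 2 of the groups overlapped, with DY131-treated DU145-pc3.1 cells lowest and DY131-treated DU145-Esrrb cells highest.

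HOXB9 (chr17:48621159-48626356), the next gene on the posterior side, was at 57.1 and 67.1 cpm in DU145-pc3.1, 82.5 and 90.8 in DU145-Esrrb, 41.3 and 30.4 in DY131-treated DU145-pc3.1, and 129.98 and 123.1 in DY131-treated DU145-Esrrb. Its groups had the same order as those of HOXB8 and did not overlap.

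HOXB7 (chr17:48607227-48633572) has a long annotated span that covers HOXB8 and HOXB9, and its homeobox lies on the anterior side of theirs. HOXB7 was at 32.0 and 30.9 cpm in DU145-pc3.1, 32.7 and 34.8 in DU145-Esrrb, 30.9 and 33.9 in DY131-treated DU145-pc3.1, and 46.2 and 43.7 in DY131-treated DU145-Esrrb. Only the last group stood clear of the others.

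HOXB6 (chr17:48595751-48604992) was at 17.6 and 18.1 cpm in DU145-pc3.1, 24.4 and 22.3 in DU145-Esrrb, 20.6 and 15.6 in DY131-treated DU145-pc3.1, and 45.0 and 50.5 in DY131-treated DU145-Esrrb. HOXB5 (chr17:48591257-48593961) was at 10.0 and 8.54, 9.51 and 11.8, 11.03 and 6.84, and 22.0 and 22.3 cpm in the same order of groups. For both genes the DY131-treated DU145-Esrrb libraries lay above all 6 others.

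HOXB3 (chr17:48548870-48604912) has a long annotated span that covers HOXB4 and HOXB5 and overlaps HOXB6. HOXB3 was at 14.8 and 13.1 cpm in DU145-pc3.1, 20.1 and 17.9 in DU145-Esrrb, 17.6 and 12.8 in DY131-treated DU145-pc3.1, and 20.6 and 20.01 in DY131-treated DU145-Esrrb. HOXB2 (chr17:48540894-48544989) was at 2.77 and 4.40, 5.77 and 5.79, 4.58 and 3.97, and 7.04 and 7.12 cpm in the same order. For both genes each DU145-Esrrb library lay above both DU145-pc3.1 libraries of the same treatment.

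HOXB4 (chr17:48575513-48580111) was at 0.763 and 0.704 cpm in DU145-pc3.1, 0.594 and 0.828 in DU145-Esrrb, 0.748 and 0.595 in DY131-treated DU145-pc3.1, and 2.48 and 2.26 in DY131-treated DU145-Esrrb. The last group was higher than all others, with a Log2FC of 1.72 against untreated DU145-Esrrb cells (1.46 with the offset described below) and 1.79 against DY131-treated DU145-pc3.1 cells (1.48). Since the gene was tested only because it was high there, its values are a description and it enters no count, and 12.4% of its 50-base windows lie in other genes or non-coding transcripts.

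**Figure D2:**
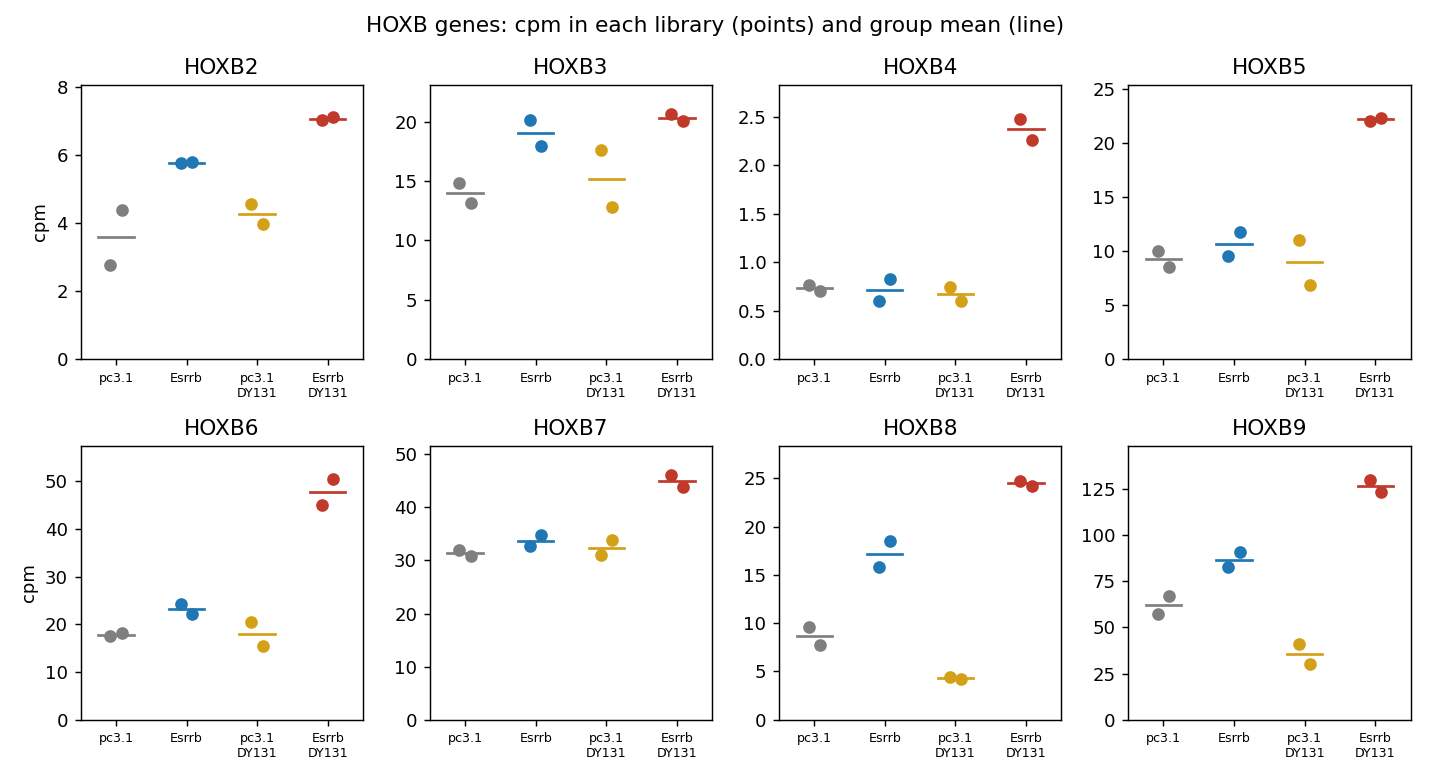
Cpm of HOXB2 to HOXB9 in each library (points) and the group mean (line), with a separate axis from 0 for each gene. In DY131-treated DU145-Esrrb cells HOXB8 was at 24.8 and 24.2 cpm and HOXB9 at 129.98 and 123.1, and both genes were lowest in DY131-treated DU145-pc3.1 cells.

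HOXB8 and HOXB9 were higher with Esrrb in untreated cells. HOXB8 was higher in DU145-Esrrb than in DU145-pc3.1 cells by a Log2FC of 0.98 (SE 0.14, 95% interval 0.68 to 1.28, adjusted p 0.000812), just short of a call, and this rise was known from these data when the genes were chosen. HOXB9 was higher by 0.48 (SE 0.10, adjusted p 0.0159). These were the 2 of 26 members that passed, both upward, and of all tested genes 1.68% passed upward and 2.50% downward, and 0.180% were called upward and 0.397% downward. HOXB8 passed without any one of the 8 libraries (Log2FC 0.83 to 1.14), and it was called without DU145-pc3.1 replicate 1 or DU145-Esrrb replicate 1. HOXB9 did not pass without DU145-pc3.1 replicate 1 (adjusted p 0.224) or without DU145-Esrrb replicate 1 or 2 (adjusted p 0.0603 and 0.182).

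The other 5 HOXB genes counted had positive values that did not pass. HOXB2 was at 0.68 (adjusted p 0.113), HOXB3 at 0.45 (adjusted p 0.0966), HOXB6 at 0.39 (adjusted p 0.108), HOXB5 at 0.20 (95% interval -0.21 to 0.60) and HOXB7 at 0.10 (95% interval -0.08 to 0.29). HOXB2, HOXB3 and HOXB6 passed without DY131-treated DU145-pc3.1 replicate 1 (adjusted p 0.0338, 0.00652 and 0.00974) or replicate 2 (adjusted p 0.0367, 0.00757 and 0.0114), libraries that enter this comparison only through the shared spread. The median Log2FC was 0.45 over the 7 HOXB genes and 0.00 over all tested genes. HOXB7, whose homeobox is the next one on the anterior side of HOXB8, had the lowest value of the 7.

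No member of HOXA, HOXC or HOXD passed for Esrrb alone. The medians were 0.07 for 9 HOXA, 0.07 for 8 HOXC and 0.15 for 2 HOXD genes. With Esrrb alone the Log2FC ranged from -0.34 to 0.98 over the 26 members.

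In DU145-pc3.1 cells HOXB8 and HOXB9 fell with DY131. HOXB8 fell by 0.999 on the log2 scale (SE 0.18, 95% interval -1.39 to -0.61, adjusted p 0.000564) and HOXB9 fell by 0.79 (SE 0.12, adjusted p 8.07e-05). HOXA3 (Log2FC -0.72, adjusted p 0.000379), an anterior HOXA gene, and HOXC10 (-0.29, adjusted p 0.0390) also fell, and HOXC8 rose (0.54, adjusted p 0.0306). Thus 1 of 26 members passed upward and 4 downward, beside 18.9% and 18.5% of all tested genes, and none was called (1.02% of all genes were called upward and 3.16% downward). HOXC10 did not pass when any of 6 libraries was left out singly, nor under DESeq2 (adjusted p 0.213).

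None of the genes anterior of HOXB8 passed the test for DY131 in DU145-pc3.1 cells. HOXB7 was at 0.04 (95% interval -0.14 to 0.23), HOXB6 at 0.02 (-0.26 to 0.30), HOXB5 at -0.04 (-0.46 to 0.38), HOXB3 at 0.13 (-0.19 to 0.44) and HOXB2 at 0.24 (-0.26 to 0.75). The replicates of this group differed more than others, with a chi-square per degree of freedom of 7.51 between them against 1.31 to 2.70 in the other groups. Without DY131-treated DU145-pc3.1 replicate 1, HOXB8 and HOXB9 were both called.

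Before the comparisons that use the DY131-treated DU145-Esrrb libraries, a property of these libraries has to be given. In them, genes with few exon junctions had higher counts and genes with many had lower ones. For DY131 in DU145-Esrrb cells, the genes with the smallest share of 50-base windows that cross an exon junction (the lowest decile, at most 2.83%) had a median Log2FC of 0.26 and those of the highest decile -0.55. Spearman's correlation across genes, which are not independent replicates, was -0.374, against 0.010 for DY131 in DU145-pc3.1 cells. HOX transcripts have few exons, and their median share was 2.73% against 14.3% over all tested genes. Of the 26 members, 16 lay in that lowest decile. The part of this in the HOX values was not tested. Values from a fit with a per-library offset for the junction share, called the offset below, are therefore given beside those of the main HOX genes. Shares of all tested genes were counted for the fit without the offset only.

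In DU145-Esrrb cells HOXB5, HOXB6, HOXB7, HOXB8 and HOXB9 rose with DY131. HOXB5 rose by 1.06 (SE 0.17, adjusted p 8.22e-05) and HOXB6 by 1.04 (SE 0.11, adjusted p 1.73e-06), which were called. HOXB9 rose by 0.55 (adjusted p 0.000252), HOXB8 by 0.52 (adjusted p 0.00257) and HOXB7 by 0.41 (adjusted p 0.000729). HOXB2 was at 0.29 (adjusted p 0.239, 0.06 with the offset) and HOXB3 at 0.09 (adjusted p 0.595, -0.10 with the offset). So 8 of 26 members passed upward and 3 downward, beside 29.2% and 29.5% of all tested genes, and 2 were called upward and none downward (2.98% and 9.04% of all).

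With the offset, HOXB6 (0.92, adjusted p 6.99e-06), HOXB5 (0.81, adjusted p 0.000952) and HOXB9 (0.29, adjusted p 0.0238) still passed. HOXB8 (0.27, adjusted p 0.0812) and HOXB7 (0.19, adjusted p 0.0786) did not, and none was called. The pattern along the cluster thus differed from that of Esrrb alone, where HOXB8 had the largest value: here HOXB5 and HOXB6 had larger values than HOXB8, with the offset and without it. The differences between genes were not tested.

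Outside HOXB, HOXA9 (0.96, adjusted p 0.00772), HOXC6 (0.55, adjusted p 0.0206) and HOXA10 (0.27, adjusted p 0.0157) rose, and HOXA3 (-0.55, adjusted p 0.00176), HOXC13 (-0.46, adjusted p 0.0367) and HOXC10 (-0.27, adjusted p 0.0441) fell, HOXC10 not passing when any of 4 libraries was left out singly. With the offset, HOXA9 kept its pass (0.71, adjusted p 0.0425), HOXC6 (0.31) and HOXA10 (0.01) did not, the 3 falls were larger (-0.78, -0.71 and -0.52) and HOXA13 also fell (-0.67, adjusted p 0.0307). HOXA9 and HOXC6 each lost their pass without single libraries, HOXA9 without DY131-treated DU145-Esrrb library a (adjusted p 0.0830) and HOXC6 without library b (adjusted p 0.296) or DU145-Esrrb replicate 2 (adjusted p 0.131). HOXA10 did not pass without any of 4 libraries in turn, both untreated and both treated DU145-Esrrb ones. Under DESeq2 HOXA10 (adjusted p 0.112), HOXC6 (adjusted p 0.118), HOXA9 (adjusted p 0.0508) and HOXC10 (adjusted p 0.190) did not pass.

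**Figure D3:**
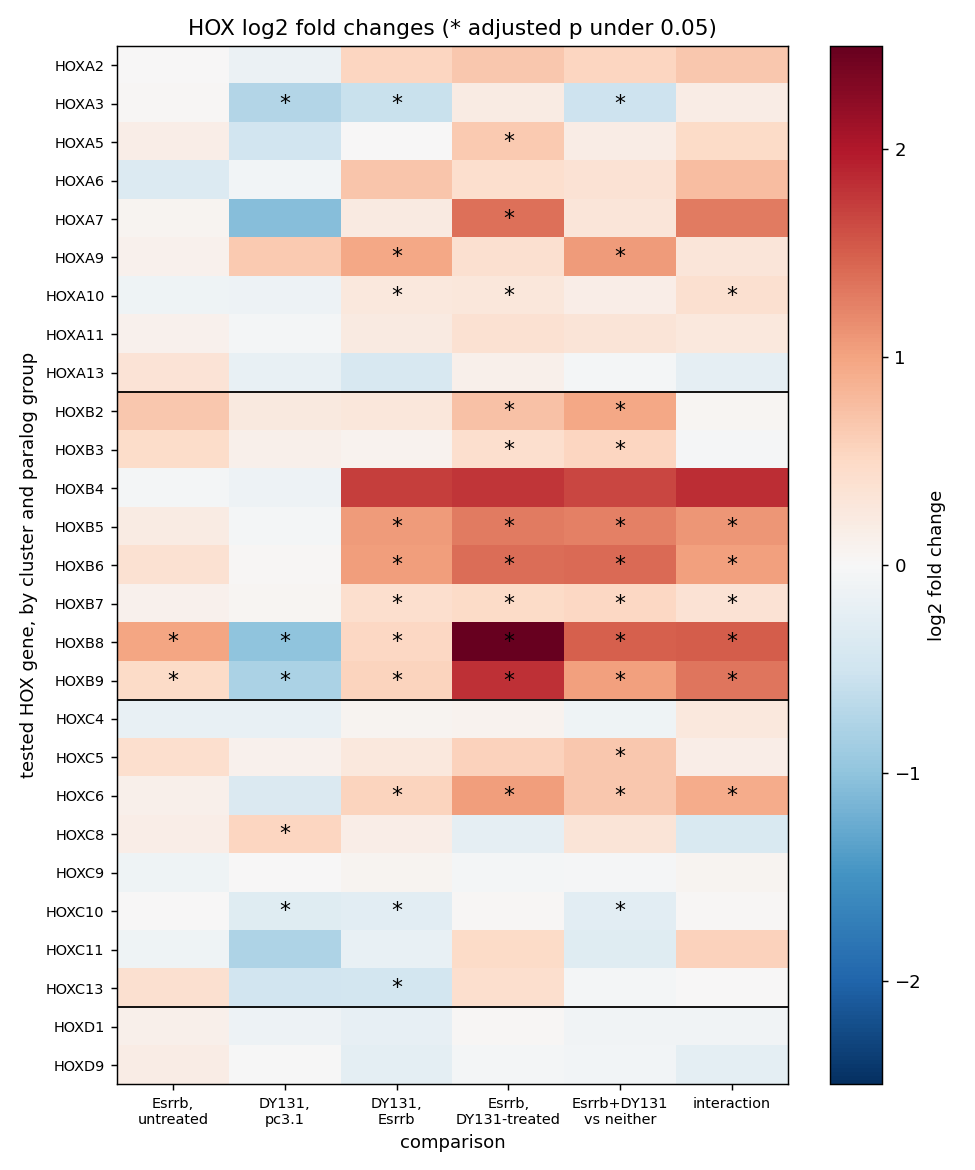
Log2FC of the 27 tested HOX genes (rows, by cluster and paralog group) in the 6 comparisons (columns), without the offset, with an asterisk where the adjusted p is under 0.05 (HOXB4, which reached the test only through the DY131-treated DU145-Esrrb libraries, is not marked). The block of rises lies in HOXB2 to HOXB9, and HOXB8 with Esrrb in DY131-treated cells (2.495) is the largest value.

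The HOXB genes were higher with Esrrb among DY131-treated cells. Relative to DY131-treated DU145-pc3.1 cells, HOXB8 was 5.64-fold higher in DY131-treated DU145-Esrrb cells (Log2FC 2.495, SE 0.16, adjusted p 9.05e-09) and HOXB9 3.52-fold higher (1.81, SE 0.11, adjusted p 5.22e-09). HOXB6 (1.40, adjusted p 2.14e-07) and HOXB5 (1.30, adjusted p 2.55e-05) were called as well. HOXB2 (0.72, adjusted p 0.0129), HOXB7 (0.47, adjusted p 0.000386) and HOXB3 (0.41, adjusted p 0.0275) passed, so that all 7 HOXB genes counted rose. Among the 26 members 11 passed upward and none downward, beside 25.1% and 25.3% of all tested genes, and 6 were called upward and none downward (2.15% and 6.06% of all).

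The same comparison with the offset left 5 members higher, 1 lower and 4 called. The shares of all tested genes with the offset were not counted, so these counts are a description. The 4 called were HOXB8 (2.22), HOXB9 (1.51), HOXB6 (1.28) and HOXB5 (1.01). HOXB2 (0.46, adjusted p 0.111), HOXB7 (0.22, adjusted p 0.0530) and HOXB3 (0.21, adjusted p 0.278) did not pass. Without the offset, HOXB2 (adjusted p 0.0863) and HOXB3 (adjusted p 0.0984) did not pass under DESeq2. HOXB8, HOXB9, HOXB6, HOXB5 and HOXB7 passed without any one library in turn (without the offset). HOXB2 did not pass without either DY131-treated DU145-Esrrb library (adjusted p 0.0568 and 0.0720), and HOXB3 not without either of these (adjusted p 0.119 and 0.0946) or without DY131-treated DU145-pc3.1 replicate 2 (adjusted p 0.215).

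HOXA7 and HOXC6 were the called genes outside HOXB. HOXC6 (chr12:53990624-54030823) was at 6.87 and 5.46 cpm in DU145-pc3.1, 7.22 and 6.16 in DU145-Esrrb, 4.67 and 4.86 in DY131-treated DU145-pc3.1, and 8.34 and 11.2 in DY131-treated DU145-Esrrb. Its Log2FC between the DY131-treated pools was 1.04 (adjusted p 0.000585), and 0.77 with the offset (adjusted p 0.00713). HOXA7 (chr7:27153716-27157936) was at 1.91 and 0.969, 1.78 and 1.20, 0.841 and 0.496, and 2.22 and 1.36 cpm in the same order of groups, and its 1.37 (adjusted p 0.0354) did not pass with the offset (adjusted p 0.104), under DESeq2 (adjusted p 0.120), without DY131-treated DU145-pc3.1 replicate 2 (adjusted p 0.123) or without DY131-treated DU145-Esrrb library a (adjusted p 0.247). For HOXA7, 74.3% of the 50-base windows are antisense to HOXA-AS3, and the counter's use of strand is not stated, so the gene and its antisense partner may not be told apart. HOXA5 (0.65) passed without the offset and not with it, and HOXA10 (0.29) turned to -0.01 with it.

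Against cells with neither Esrrb nor DY131, DY131-treated DU145-Esrrb cells had HOXB8 higher by 1.496 (adjusted p 3.38e-07), HOXB6 by 1.42 (adjusted p 9.69e-08), HOXB5 by 1.26 (adjusted p 2.06e-05) and HOXB9 by 1.02 (adjusted p 7.25e-07). HOXB2 (0.97), HOXB3 (0.54) and HOXB7 (0.51) also rose, so all 7 passed. Over the members 10 of 26 passed upward and 2 downward, beside 29.1% and 30.1% of all tested genes, and 5 were called upward and none downward (3.31% and 9.52% of all). With the offset HOXB3 did not pass (0.34, adjusted p 0.0648), and HOXB6 (1.30) and HOXB8 (1.24) remained called. HOXB5 (0.99), HOXB9 (0.75), HOXB2 (0.72) and HOXB7 (0.28) passed with the offset and were not called.

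HOXA9 (chr7:27162435-27175180) was the called gene outside HOXB in that comparison. It was at 2.10 and 2.64 cpm in DU145-pc3.1, 2.55 and 2.58 in DU145-Esrrb, 4.58 and 2.88 in DY131-treated DU145-pc3.1, and 5.61 and 4.41 in DY131-treated DU145-Esrrb, and both DY131-treated groups lay above both untreated ones. Its Log2FC was 1.06 (adjusted p 0.00446), and 0.79 with the offset. It did not pass without DY131-treated DU145-Esrrb library a (adjusted p 0.0552), and 17.4% of its windows occur in another transcript.

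HOXA10, the highest HOXA gene, was at 30.9 and 30.4 cpm in DU145-pc3.1, 28.7 and 28.0 in DU145-Esrrb, 28.1 and 27.8 in DY131-treated DU145-pc3.1, and 34.7 and 33.7 in DY131-treated DU145-Esrrb. HOXC10, the highest HOXC gene, was at 26.1 and 23.2, 25.3 and 24.1, 19.5 and 20.6, and 21.4 and 19.7 cpm in the same order, and thus lower with DY131 in both pools. HOXD9, the highest HOXD gene, was at 4.96 and 4.05, 4.50 and 5.79, 4.11 and 4.86, and 4.43 and 4.18 cpm, with overlapping groups, and passed in none of the 6 comparisons.

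Whether DY131 acted differently in the presence of Esrrb was tested with the interaction of Esrrb and DY131. It was positive for HOXB8 (1.52, SE 0.22, adjusted p 0.000123), HOXB9 (1.34, SE 0.15, adjusted p 1.35e-05), HOXB5 (1.11, SE 0.26, adjusted p 0.00468) and HOXB6 (1.01, SE 0.17, adjusted p 0.000438), and these 4 were called. HOXB7 (0.37, adjusted p 0.0314), HOXC6 (0.92, adjusted p 0.0214) and HOXA10 (0.40, adjusted p 0.0206) passed. HOXB2 (0.05, 95% interval -0.63 to 0.72) and HOXB3 (-0.04, 95% interval -0.47 to 0.40) did not. In total 7 of 26 members passed upward and none downward, beside 16.1% and 17.6% of all tested genes, and 4 were called upward and none downward (1.54% and 4.74% of all).

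For HOXB8 and HOXB9 the interaction joins a fall with DY131 in DU145-pc3.1 cells to a rise in DU145-Esrrb cells, and for HOXB5 and HOXB6 it joins values near 0 to a rise. With the offset it passed for HOXB8 (1.25, adjusted p 0.000898), HOXB9 (1.05, adjusted p 0.000179), HOXB6 (0.90, adjusted p 0.00177) and HOXB5 (0.84, adjusted p 0.0315) and for no other member counted. These 4 passed without any one library. HOXB7 did not pass without 7 of the 8 libraries in turn, HOXA10 without 5 of them and HOXC6 without 3. Under DESeq2 HOXB7 (adjusted p 0.177), HOXC6 (adjusted p 0.122) and HOXA10 (adjusted p 0.159) did not pass either.

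The flanking genes of HOXB were examined for the same changes. Of the genes listed on either side of HOXB in the count table, 16 were found and 11 tested. On the HOXB1 side SKAP1, SNX11, CBX1, NFE2L1, COPZ2 and CDK5RAP3 were tested, and on the HOXB13 side CALCOCO2, ATP5G1, UBE2Z, SNF8 and IGF2BP1. PRAC, the gene next to HOXB13, had 0 reads in every library. With Esrrb alone none of the 11 rose and 1 fell, beside 1.68% and 2.50% of all tested genes. The gene that fell was IGF2BP1, an RNA-binding protein gene (-1.62, adjusted p 0.0312). For DY131 in DU145-Esrrb cells CBX1 (0.40, and 0.28 with the offset) and UBE2Z (0.50, and 0.39 with the offset) rose and 6 fell, beside 29.2% and 29.5% of all tested genes. The nearest tested gene on the HOXB1 side, SKAP1, fell by 0.87 on the log2 scale (adjusted p 0.00169), and its value with the offset was -0.28 (adjusted p 0.257). CALCOCO2, the nearest on the other side, fell by 0.37 (-0.34 with the offset).

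Between the DY131-treated pools 3 of the 11 rose and 6 fell, beside 25.1% and 25.3% of all tested genes. None was called upward, and 6.06% of all tested genes were called downward. IGF2BP1 was at 3.36 and 2.58 cpm in DY131-treated DU145-pc3.1 and at 3 and 1 reads in DY131-treated DU145-Esrrb cells (-3.55, 95% interval from the fit -4.70 to -2.41, and -2.92 with the offset), and COPZ2, a coat protein gene, was at -1.0001 (-0.35 with the offset, adjusted p 0.507). The offset moved SKAP1, with a junction share of 38.0%, upward, and CBX1 (8.98%) and UBE2Z (9.57%) downward. The median over the 11 was -0.33, while it was 1.30 over the 7 HOXB genes.

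**Figure D4:**
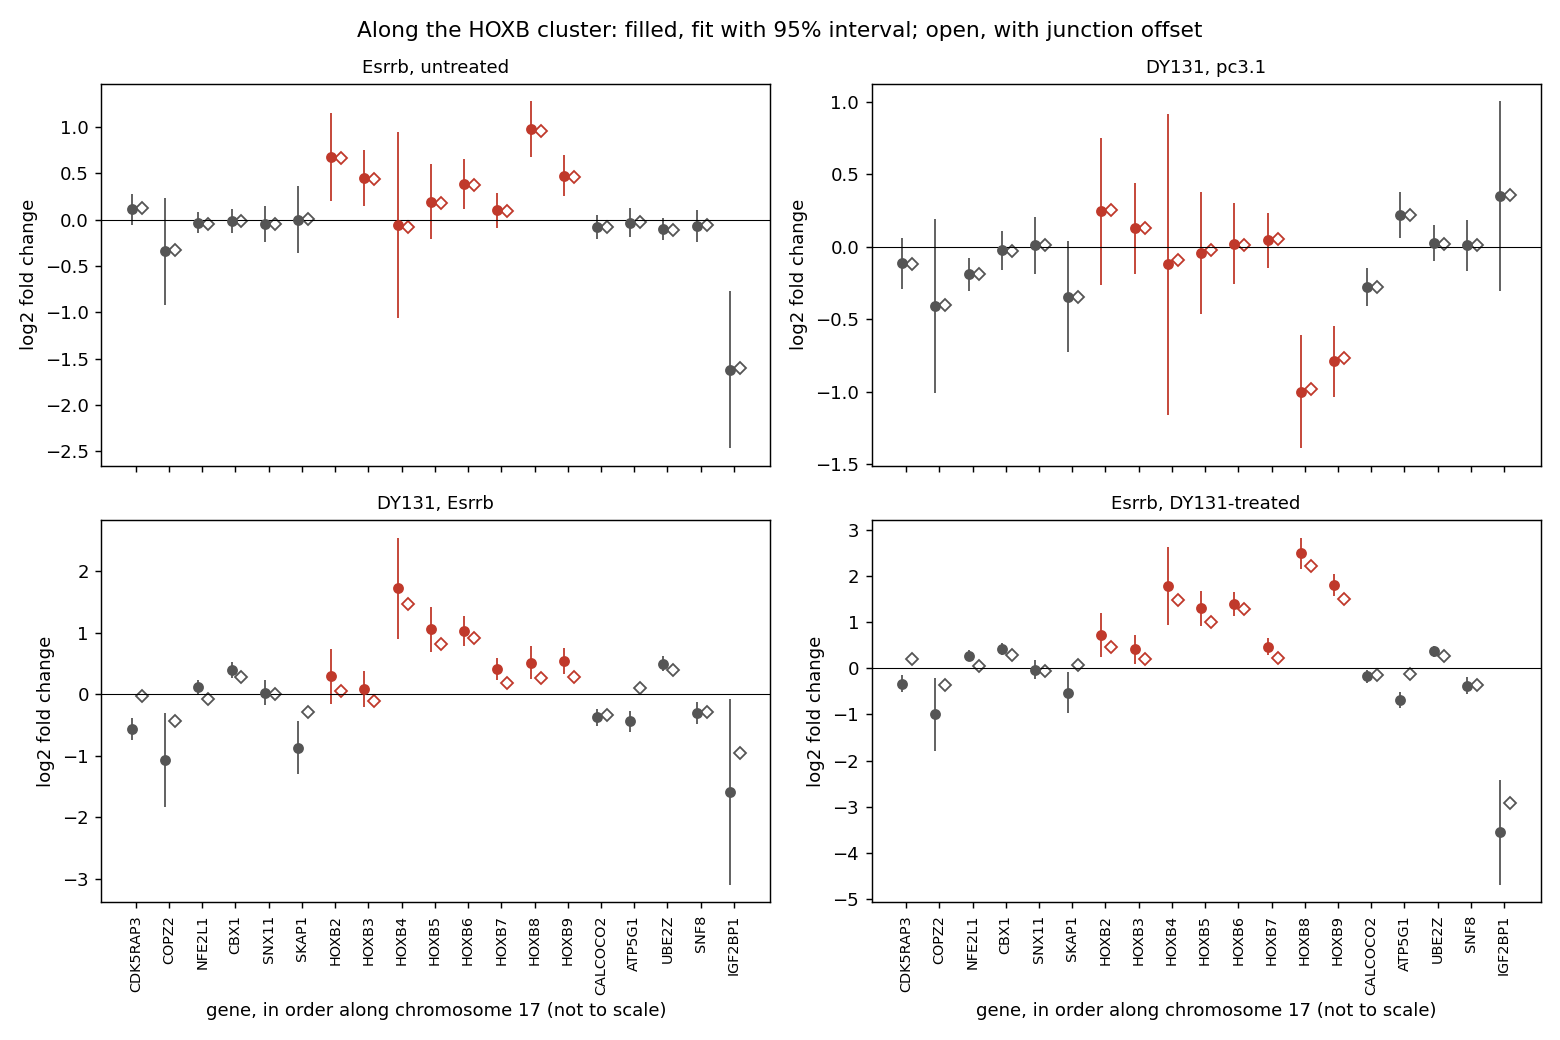
Log2FC of the tested HOXB genes (red) and flanking genes (grey) in their order along chromosome 17, with filled circles and 95% intervals for the fit, open diamonds for the fit with the junction offset, 1 panel for each of 4 comparisons and a separate vertical axis for each. HOXB8 is the highest point with Esrrb in untreated (0.98) and in DY131-treated cells (2.495), whereas with DY131 in DU145-Esrrb cells HOXB4 (1.72), HOXB5 (1.06) and HOXB6 (1.04) lie above it.

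For the flanking genes of HOXA, HOXC and HOXD, 14 were tested. None passed with Esrrb alone, where 1.68% of all tested genes passed upward and 2.50% downward. For DY131 in DU145-Esrrb cells 1 rose and 8 fell, beside 29.2% and 29.5% of all tested genes. CALCOCO1, beside HOXC, was at 35.9 and 33.5 cpm in DU145-pc3.1 and at 16.0 and 17.6 cpm in DY131-treated DU145-Esrrb cells (-1.04, adjusted p 1.72e-06, and -0.86 with the offset). It also fell with DY131 in DU145-pc3.1 cells (-0.88, adjusted p 1.66e-05).

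HOX proteins act with TALE cofactors. Of 12 listed cofactor genes, which include GMNN, not a TALE gene, 10 were tested. None passed with Esrrb alone, beside 1.68% upward and 2.50% downward of all tested genes. MEIS3, a MEIS family gene, had 31, 42, 45 and 34 reads in the untreated libraries, 23 and 18 in DY131-treated DU145-pc3.1 and 1 and 3 in DY131-treated DU145-Esrrb cells, a Log2FC of -3.78 for DY131 in DU145-Esrrb cells (adjusted p 7.31e-06, -3.28 with the offset). It was the cofactor called in any comparison. PBX3 was higher with DY131 in both pools (0.47 in DU145-pc3.1 and 0.33 in DU145-Esrrb cells, where it was also 0.33 with the offset). For DY131 in DU145-Esrrb cells 2 of 10 cofactors rose and 2 fell, beside 29.2% and 29.5% of all tested genes.

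Non-coding RNAs of the clusters were scarce in these libraries. Of the 16 listed in the counts, 6 had 0 reads throughout and 5 were tested, HOTAIR, HOTAIRM1, HOXA11-AS, HOXA-AS3 and HOXD-AS1. HOTAIRM1, transcribed at the anterior end of HOXA, was at 9.45 and 9.95 cpm in DU145-pc3.1, 10.8 and 9.66 in DU145-Esrrb, 5.70 and 5.55 in DY131-treated DU145-pc3.1, and 6.52 and 5.20 in DY131-treated DU145-Esrrb. It fell with DY131 in both pools (-0.78 and -0.81, the same 2 values with the offset). HOXA-AS3, antisense to HOXA7, was at -0.80 with DY131 in DU145-pc3.1 cells (adjusted p 0.142). HOXD-AS1 rose by 0.66 in DU145-Esrrb cells (0.43 with the offset). HOXB-AS3, which lies among the raised HOXB genes, had at most 3 reads in any library.

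Of 30 Polycomb genes, which encode repressors of HOX genes, 29 were tested. None passed with Esrrb alone, beside 1.68% upward and 2.50% downward of all tested genes. For DY131 in DU145-Esrrb cells 7 rose and 6 fell, beside 29.2% and 29.5% of all tested genes. CBX2, a chromodomain subunit of the PRC1 complex, was at 3.31 and 2.85 cpm in DU145-Esrrb and at 7.30 and 5.31 in DY131-treated DU145-Esrrb cells (1.02, adjusted p 0.00165, and 0.80 with the offset). PHF1 had 13 and 11 reads in DU145-Esrrb and 0 in both DY131-treated DU145-Esrrb libraries, and it was called lower at these small counts. Of 19 Trithorax genes, which keep HOX genes active, none passed with Esrrb alone (1.68% and 2.50% of all) and none was called in any comparison. For DY131 in DU145-Esrrb cells 9 of the 19 rose and 3 fell, beside the same 29.2% and 29.5%. The largest values were those of MLL (0.81) and MLL2 (0.80) with DY131 in DU145-pc3.1 cells.

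Among 24 listed upstream regulators of HOX genes, from retinoic acid, CDX, WNT and GDF11 signals, 10 were tested. CYP26A1, which degrades retinoic acid and is itself induced by it, had 17 and 14 reads in DU145-pc3.1, 10 and 11 in DU145-Esrrb, 4 and 1 in DY131-treated DU145-pc3.1, and 6 and 9 in DY131-treated DU145-Esrrb. It fell with DY131 in DU145-pc3.1 cells (-2.504, adjusted p 0.00298), and the interaction was 2.47 (adjusted p 0.0246). GDF11, a secreted factor of axial patterning, was at 32.7 cpm in both DU145-Esrrb libraries and at 66.6 and 66.4 cpm after DY131 (1.02, adjusted p 7.67e-08, and 0.76 with the offset). The CDX genes were not tested for want of reads.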

How the data were processed

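RNA of DU145-pc3.1 and DU145-Esrrb cells, grown in medium with charcoal-stripped serum and with or without 3 μM DY131, was made into stranded, poly(A) libraries and read as single reads of 50 bases. The length of the treatment is not given in the sources used here. The values are raw counts per gene, which the authors deposited after quality trimming (FASTX-Toolkit), alignment to hg18 (TopHat2) and counting in their program MULTICOM-MAP, whose use of strand and of reads with several matches is not stated. Groups come from the labels, and 1 lane held all 8 libraries. The 2 columns of DY131-treated DU145-Esrrb cells share a heading and are called library a and b. Among the symbols, 28 stand as plain numbers, as spreadsheets write dates. The paper calls its replicates biological, in a caption also independent replicates of the transfected cells, and its methods state that replicates of each vector were pooled. Whether the 2 samples of a group come from separate transfections is not clear, so p-values measure the spread between these 2 samples.

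From these counts, the 13856 genes that reached 1 cpm in 2 or more libraries were tested with edgeR 4.0.16 in R 4.3.3 (TMM, quasi-likelihood F test, 1 term per group, Benjamini-Hochberg adjustment over all tested genes). Cpm use effective library sizes, and level per kilobase uses the length of the GENCODE 29 transcript. Values are given per library, and floors of 3 counts cover counting error only. The junction offset (exon-crossing share of 50-base windows) was fitted per library with a lowess span of 0.3, over the 98.6% of tested genes with a value. Positions are those of GENCODE 29 on GRCh38, not of hg18. Shared runs of bases were counted over the transcripts of all 38 members, and microRNAs were matched by name. The promoter table used here matched 20 of the 38 members and was not used. Alternatives were edgeR's exact test (the study's test), DESeq2 1.42.0, other scaling, filters and fold thresholds, an offset for transcript length and GC, a replicate block, and leaving out each library. Counts were simulated for 13654 genes, with 200 changed 4-fold in the comparison of Esrrb in untreated cells. The quasi-likelihood test recovered 200 of 200 with 0 false calls, DESeq2 200 with 0 and the exact test 200 with 1. The changed genes were drawn above a level that several tested HOX genes do not reach. The largest HOX Log2FC in that comparison was 0.98, so this check does not measure power for the HOX changes. With a simulated junction bias over 13697 genes and no true change, the comparison of DY131 in DU145-Esrrb cells gave 4503 false calls without the offset and 0 with it. That simulated bias was steeper than the one in the data and had the smooth form that the offset fits. It therefore checks that the offset works as written, and not how much of the real bias it removes.

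Genes named with values in every library were members called in any comparison, every other tested HOXB gene and the highest member of each cluster; of the other lists, the called genes (at most 5) or else the 2 with the largest change, and any other gene named was chosen after its values were seen. The members and lists were chosen with earlier results of these data known. 1 HOX gene of the table and some other items are not reported here.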

Additional observations from a re-analysis of the deposited data

Results flagged for a closer look

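The effect of DY131 differed between DU145-Esrrb and DU145-pc3.1 cells for 7 HOX genes, by the interaction term of edgeR's quasi-likelihood test. The interaction was 1.52 for HOXB8, 1.34 for HOXB9, 1.11 for HOXB5, 1.01 for HOXB6, 0.92 for HOXC6, 0.40 for HOXA10 and 0.37 for HOXB7 on the log2 scale. HOXB4 had a value of 1.84, which is a description and is not counted, since the gene reached the test only through its level in the DY131-treated DU145-Esrrb libraries. It did not pass without 7 of the 8 libraries in turn, and its value was 1.55 with the junction offset (adjusted p 0.0900). With the junction offset, HOXB8 (1.25), HOXB9 (1.05), HOXB6 (0.90) and HOXB5 (0.84) passed, and HOXC6 (0.66, adjusted p 0.106), HOXA10 (0.12, adjusted p 0.526) and HOXB7 (0.13, adjusted p 0.472) did not. HOXC6 (adjusted p 0.122), HOXA10 (adjusted p 0.159) and HOXB7 (adjusted p 0.177) did not pass under DESeq2 either. The fall of HOXB8 and HOXB9 under DY131 in cells with at most 3 ESRRB reads rests on a group whose replicates differed more than the others.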

How the results depend on the processing

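The comparisons were Esrrb alone, DY131 in DU145-pc3.1, DY131 in DU145-Esrrb, Esrrb in DY131-treated cells, both against neither, and the interaction, with 0, 0, 2, 6, 5 and 4 HOX genes called. Without a fold threshold these counts were 2, 5, 11, 11, 12 and 7. At 1.5-fold they were 1, 3 and 8 for Esrrb alone, DY131 in DU145-pc3.1 and both against neither. With the junction offset 0, 2 and 2 were called for DY131 in DU145-Esrrb, both against neither and the interaction. The shares of all tested genes called at 1.5-fold, with that offset or under the alternatives below were not counted, so these counts are a description. With library size alone 1 was called for DY131 in DU145-pc3.1 and 0 for DY131 in DU145-Esrrb, and a minimum of 10 counts in all libraries left 1 for the latter. DESeq2, the exact test, DESeq2's size factors, no low-count filter and the offset for length and GC content gave 0 to 6 and stayed within 1.5 times of each count. Leaving out 1 library gave 0 to 1, 0 to 2, 1 to 2, 5 to 6, 3 to 6 and 2 to 5 calls. These counts changed by more than 1.5 times without DU145-pc3.1 replicate 1 (Esrrb alone 1, both against neither 3), DU145-pc3.1 replicate 2 (DY131 in DU145-pc3.1 1), DU145-Esrrb replicate 1 (Esrrb alone 1, DY131 in DU145-Esrrb 1), DU145-Esrrb replicate 2 (DY131 in DU145-Esrrb 1), DY131-treated DU145-pc3.1 replicate 1 (DY131 in DU145-pc3.1 2) and replicate 2 (interaction 2) and DY131-treated DU145-Esrrb library a (both against neither 3). The cause was not tested.

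Of 1437 single-gene values under an alternative, 1317 stayed on their side of the adjusted p threshold, 105 no longer passed and 14 newly passed. The remaining 1 had passed and changed sign, HOXA10 in DY131-treated cells with the junction offset (-0.011581). Sign changes of values that passed in neither fit are among the 1317. HOXA7 with Esrrb alone, for example, ranged from -0.35 to 0.62 as single libraries were left out. The replicate block, over the 6 libraries with a number, called 0 HOX genes for Esrrb alone and for DY131 in DU145-pc3.1 cells, as did the same 6 without it. With the block HOXB9 with Esrrb alone (adjusted p 0.0642) and HOXC10 with DY131 (adjusted p 0.0604) did not pass. Replicate numbers here are those of the sample titles, and the column headings number some libraries differently. Libraries with the same number in their titles correlated at 0.0917, 0.0229 and -0.0685 in their deviations from the group mean. These values show no strong shared deviation by number, but they cannot tell whether same-numbered samples were handled together. The exact test and the fit to the compared groups alone give no interaction. Depth limits the members under about 1 cpm, where 11 were not tested.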
